A study of Homo sapiens with 6 samples.

Results

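The 10 genes described here are the cyclins CCND1, CCND3, CCNE1 and CCNE2, the cyclin-dependent kinases CDK2, CDK4 and CDK6, the phosphatase CDC25A, the transcription factor E2F1 and the retinoblastoma gene RB1. They were chosen by symbol, with earlier results of these data known, and all 10 were found among the 58735 genes of the table. Polyadenylated RNA was sequenced from MDA-MB-231 cells, a human breast adenocarcinoma line, in 3 libraries of cells left unirradiated (0 Gy) and 3 libraries of cells given 10 Gy of gamma rays, with RNA taken 24 h after irradiation. All 6 libraries are labelled WT for genotype and carry SCR in their names; the study writes shSCR for control cells with a non-targeting short hairpin RNA, and whether these libraries come from those cells is not stated in the sources used here. The line is the descendants of a single tumour. The labels number the replicates but do not say whether they were separate cultures, so the p-values measure the spread between these libraries, which may be technical.

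The genes form the switch by which a cell leaves G1 and starts to copy its DNA. D-type cyclins bind CDK4 or CDK6 and begin to phosphorylate RB1, which otherwise holds E2F1 on its target genes; freed E2F1 then drives the genes of S phase together with CCNE1, CCNE2, CDC25A and its own gene. Cyclin E with CDK2, whose inhibitory phosphate CDC25A removes, completes the phosphorylation of RB1, and DNA damage acts on the same switch through CDC25A destruction and through CDK inhibitors.

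The libraries held between 15643641 and 28861781 reads assigned to genes. Within a dose the libraries correlated at 0.992 or more over genes and between doses at 0.9886 or less. The 6 markers of the line were present, from EGFR at 29.8 FPKM to AXL at 259 FPKM and VIM at 301 FPKM at 0 Gy (FPKM is fragments per kilobase of transcript, scaled to the sequencing depth, and so a level per length). Their summed level was 858 to 888 FPKM at 0 Gy and 732 to 752 FPKM at 10 Gy. Of 5 markers expected low in the line, ESR1, PGR, CDH1 and FOXA1 were under 1 FPKM at both doses. GATA3, the remaining one, was at 3.05 FPKM at 0 Gy and 2.93 FPKM at 10 Gy. Of 10 markers of blood, endothelial, stromal and liver cells, 8 were under 1 FPKM at both doses and CD3E was at 0 in every library. PECAM1 and COL1A1 rose, and the sum of these 10 went from between 4.28 and 4.41 FPKM to between 6.09 and 6.32 FPKM, whose part in the results below was not tested.

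After 10 Gy, 5 of the 10 genes fell and none passed the test in the upward direction. CDK4, a kinase of the D-type cyclins, and CCNE2, the second E-type cyclin, fell most, each to an FPKM 1.51-fold below its 0 Gy mean. E2F1 fell by 17.7%, CDC25A fell by 13.1% and CCND1 fell by 7.99% in mean FPKM. CCND3, CCNE1, CDK2, CDK6 and RB1 did not pass the test. Scaling the libraries to their upper quartile left 3 of the 10 called, 1 lower (CDK4) and 2 higher (CDK2 and RB1). Of the 12128 genes tested, that scaling called 122 lower and 3922 higher. The test was limma on log2(FPKM + 1) over the 12128 genes whose mean over the 6 libraries reached 1 FPKM, with Benjamini-Hochberg adjustment and a call under 0.05. Among all genes tested, 2874 were called lower, or 23.7%, and 1443 were called higher, or 11.9%. The groups did not overlap for 6 of the 10 genes, against 6294 genes, or 51.9%, of all genes, and 2 of the 10 were called lower by at least 1.3-fold, against 2.95% of all genes. The median difference in log2(FPKM + 1) was -0.11 over the 10 genes and -0.04 over all genes tested. In RNA from a whole culture, fewer cells in a phase of the cycle and less RNA per cell cannot be told apart.

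**Figure D1:**
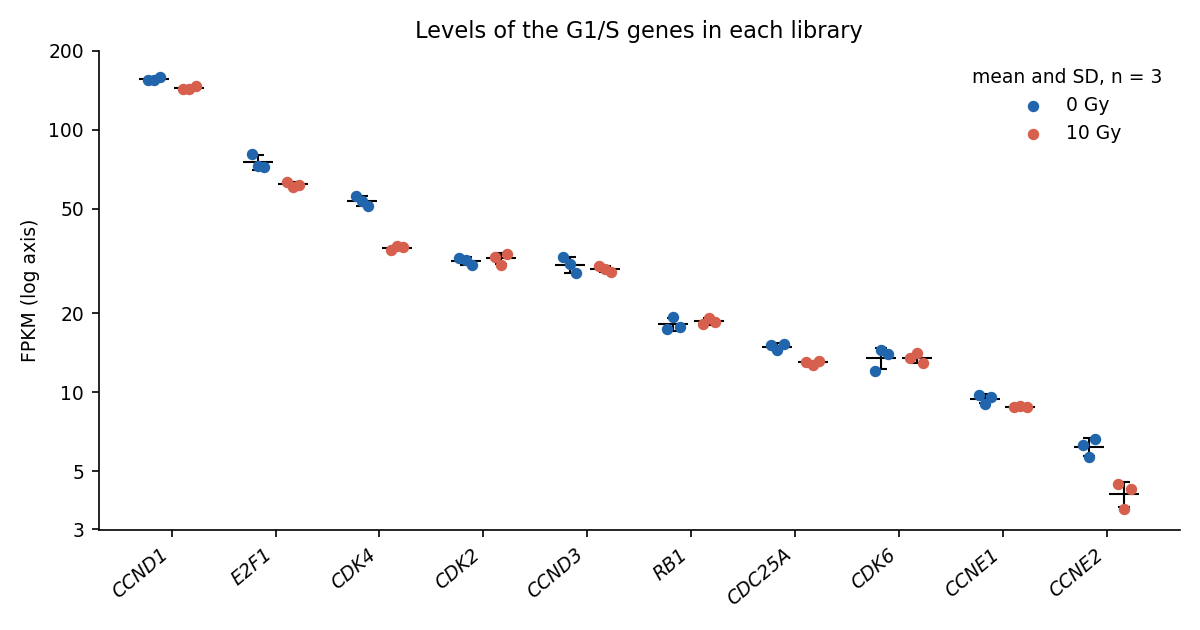
FPKM of each gene (log axis) in the 3 libraries at 0 Gy and the 3 at 10 Gy, with the mean and SD. CDK4 goes from a mean of 53.6 to 35.5 and CCNE2 from 6.20 to 4.10 with no overlap, while the points of CDK6 and RB1 lie over each other.

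By level per length, the 10 genes spanned from CCND1 at 156 ± 1.78 FPKM to CCNE2 at 6.20 ± 0.504 FPKM (SD, n = 3 at 0 Gy). E2F1 stood second at 75.2 ± 4.81 FPKM followed by CDK4 at 53.6 ± 2.29 FPKM. CDK2 and CCND3 followed, with ranges that overlapped, then RB1, then CDC25A and CDK6, whose ranges also overlapped, then CCNE1. At 10 Gy the first 6 places and the last 2 were held by the same genes in the same order. CDK6 and CDC25A exchanged mean rank with overlapping ranges, and CDK2 no longer overlapped CCND3.

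Of the kinases, CDK4 (chr12:57747727-57756013, minus strand, GRCh38) was at 55.8, 53.7 and 51.2 FPKM in the 0 Gy libraries and at 34.9, 36.1 and 35.6 FPKM in the 10 Gy libraries. Every irradiated library was far below every control, and the gap between the groups was wider than the range within either. The difference in log2(FPKM + 1) was -0.58 ± 0.038 (SE; 95% interval -0.67 to -0.49), with an adjusted p of 0.000428 by limma, and only 0.59% of the genes tested had a lower difference. CDK4 was called lower under all 18 other settings of the analysis. Of its 3168 exon bases, 1369 (43.2%) are shared with TSPAN31 on the opposite strand, and as no source states that strand was used in counting, reads of the pair may not be told apart; TSPAN31 itself was at 2.80 FPKM and 2.74 FPKM.

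CDK6 and CDK2 were not called. CDK6 (chr7:92604921-92836594, minus strand), which pairs with the same D-type cyclins as CDK4, ranged from 12.03 to 14.45 FPKM at 0 Gy and from 12.94 to 14.04 FPKM at 10 Gy, so that the irradiated range lay inside that of the controls. Its difference was 0.0038 (95% interval -0.15 to 0.16, adjusted p = 0.970 by limma), which leaves room for a change of either sign. CDK2 (chr12:55966769-55972784, plus strand), the partner of cyclin E, was at 32.5, 31.9 and 30.4 FPKM and then at 32.7, 30.6 and 33.7 FPKM, with overlapping groups, a difference of 0.03 (95% interval -0.08 to 0.13) and an adjusted p of 0.636 by limma.

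Since CDK4 and CDK6 sit in the same library, their ratio does not depend on how libraries are scaled. It was 4.64, 3.72 and 3.68 at 0 Gy and 2.60, 2.57 and 2.75 at 10 Gy, without overlap. The mean ratio went from 4.01 ± 0.544 to 2.64 ± 0.10 (SD, n = 3), a difference of -0.60 in log2. An exact two-sided permutation test gave p = 0.1, the smallest that 3 against 3 libraries allow, and 0.133 after Benjamini-Hochberg adjustment over the 4 ratios tested. CDK4 made up 79.9 ± 2.05% of the summed CDK4 and CDK6 level at 0 Gy and 72.5 ± 0.748% at 10 Gy, while that sum went from 67.1 to 49.0 FPKM.

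**Figure D2:**
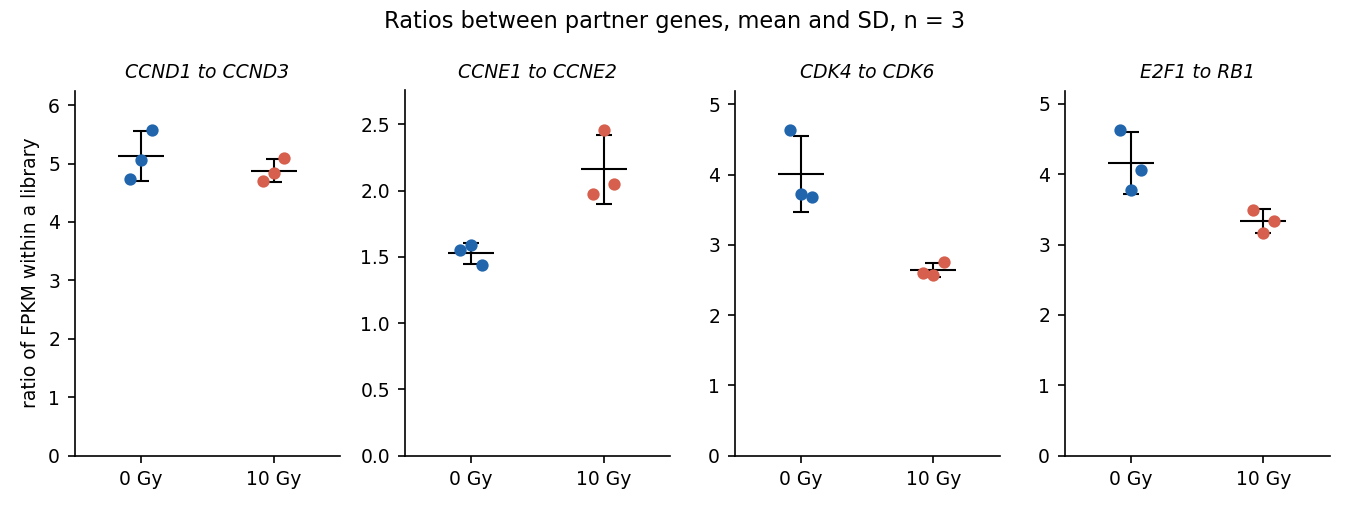
Ratio of FPKM between partner genes within each library (vertical axes start at 0), for 3 libraries per dose with mean and SD. CDK4 to CDK6 moves from 4.01 to 2.64, CCNE1 to CCNE2 from 1.53 to 2.16 and E2F1 to RB1 from 4.16 to 3.33 without overlap, and CCND1 to CCND3 overlaps.

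Among the D-type cyclins, CCND1 (chr11:69641087-69654474, plus strand), which links growth factor signals to CDK4 and CDK6, was at 155.2, 155.2 and 158.3 FPKM at 0 Gy and at 142.5, 142.4 and 146.4 FPKM at 10 Gy. The groups did not overlap, and the libraries of each dose lay within a few FPKM of each other on 11522 to 20582 reads each. The difference was small, at -0.12 ± 0.030 (SE; 95% interval -0.19 to -0.05) with an adjusted p of 0.0211 by limma. This call was the least stable of the 5: it was lost under 8 of the 18 other settings, among them leaving out control replicate 3, irradiated replicate 1 or irradiated replicate 2, and its sign turned when libraries were scaled to equal totals or upper quartiles, to 0.0082 and 0.1363.

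CCND3 (chr6:41934933-42050357, minus strand), a D-type cyclin best known from blood and muscle lineages, was at 32.8, 30.7 and 28.4 FPKM and then at 30.3, 29.4 and 28.8 FPKM. The irradiated libraries lay inside the control range, and the difference of -0.05 (95% interval -0.17 to 0.08) had an adjusted p of 0.497 by limma. CCND2, the remaining D-type cyclin, was at 0.17 FPKM at 0 Gy and 0.11 FPKM at 10 Gy, below the level tested. CCND1 supplied 83.5 ± 1.13% of the D-type cyclin level at 0 Gy and 82.9 ± 0.580% at 10 Gy, and the ratio of CCND1 to CCND3 was 5.12 ± 0.429 and 4.87 ± 0.199 with overlapping groups (exact permutation p = 0.5, adjusted 0.5).

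Of the E-type cyclins, which activate CDK2 at the start of S phase, CCNE2 (chr8:94879770-94896678, minus strand) was at 6.29, 5.65 and 6.65 FPKM at 0 Gy and at 4.45, 3.59 and 4.26 FPKM at 10 Gy. All irradiated libraries were below all controls, and the lowest value of each dose came from the library of that dose with the fewest reads, whose part in the result was not tested. The difference was -0.50 ± 0.080 (SE; 95% interval -0.69 to -0.31), with an adjusted p of 0.00403 by limma (0.0562 under upper quartile scaling). CCNE2 rested on 288 to 633 reads per library, for which counting alone gives an SD of 3.98 to 5.89%, against a replicate SD of 8.13% at 0 Gy and 11.1% at 10 Gy. It shares 1629 of its 4397 exon bases (37.1%) with INTS8 on the opposite strand, which was at 5.72 and 5.87 FPKM. Reads of this pair too may not be told apart. What this does to the level of CCNE2, its fall and its ratio to CCNE1 was not tested.

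CCNE1 (chr19:29811898-29824308, plus strand) was at 9.76, 9.01 and 9.56 FPKM and then at 8.80, 8.83 and 8.75 FPKM. The groups did not overlap, but the gap was narrow and the difference of -0.09 ± 0.039 (SE; 95% interval -0.18 to -0.0011) did not pass, with an adjusted p of 0.104 by limma. The 3 irradiated values had an SD of 0.469%, below the 3.86 to 4.93% that counting alone gives at their 411 to 671 reads. Leaving out control replicate 2 brought CCNE1 under the threshold, with an adjusted p of 0.0464 by limma. Within libraries the ratio of CCNE1 to CCNE2 was 1.55, 1.59 and 1.44 at 0 Gy and 1.98, 2.46 and 2.05 at 10 Gy. Every irradiated library was above every control, and the mean ratio went from 1.53 ± 0.0803 to 2.16 ± 0.260, a difference of 0.50 in log2 (exact permutation p = 0.1, adjusted 0.133). CCNE1 made up 60.4 ± 1.27% of the E-type cyclin level at 0 Gy and 68.3 ± 2.50% at 10 Gy, as the sum of both went from 15.6 to 12.9 FPKM.

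**Figure D3:**
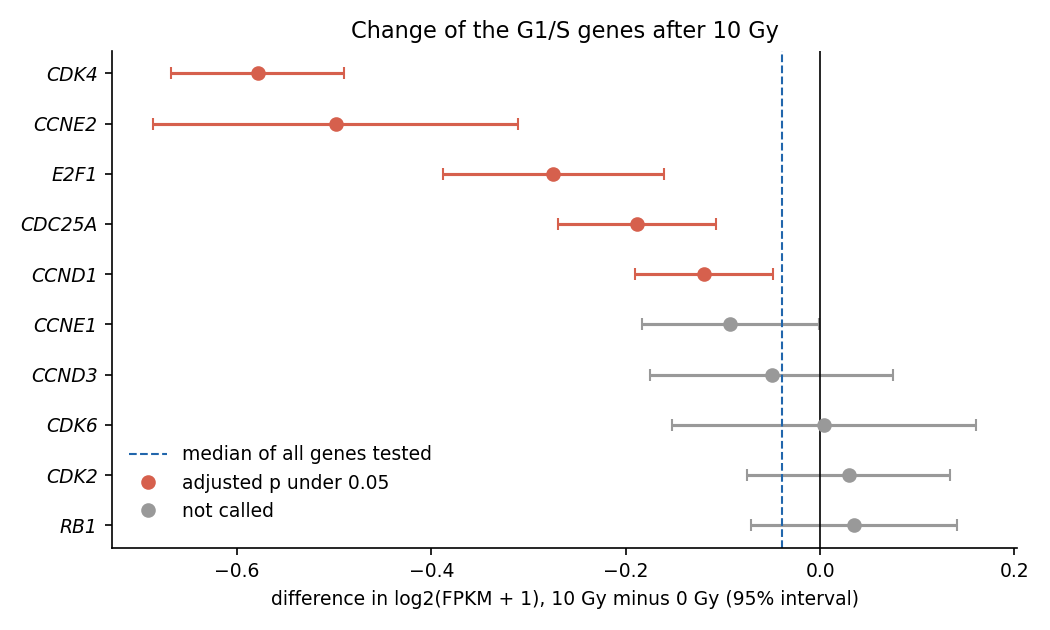
Difference in log2(FPKM + 1) between 10 Gy and 0 Gy for each gene with its 95% interval (n = 3 per dose); coloured points passed an adjusted p of 0.05 and the dashed line is the median of all genes tested, -0.04. The 5 called genes lie from -0.58 for CDK4 to -0.12 for CCND1, and the interval of CCNE1 ends close to 0.

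E2F1 (chr20:33675683-33686404, minus strand), the activating E2F, was at 80.7, 72.9 and 71.9 FPKM at 0 Gy and at 63.4, 60.5 and 61.8 FPKM at 10 Gy. Control replicate 1 stood above the other controls, and all irradiated libraries were below all of them. The difference was -0.27 ± 0.048 (SE; 95% interval -0.39 to -0.16), with an adjusted p of 0.00561 by limma. CDC25A (chr3:48157146-48188402, minus strand), which activates CDK2 and is destroyed as a protein after DNA damage, was at 15.1, 14.4 and 15.2 FPKM and then at 13.1, 12.7 and 13.1 FPKM. Its groups did not overlap, and the difference of -0.19 ± 0.035 (SE; 95% interval -0.27 to -0.11) had an adjusted p of 0.00666 by limma. Under upper quartile scaling neither was called, E2F1 being at -0.02 and CDC25A at 0.05, and CDC25A was not called under TPM scaling, in which libraries have equal totals.

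RB1 (chr13:48303726-48599436, plus strand), the brake that E2F1 is held by, was at 17.4, 19.3 and 17.7 FPKM at 0 Gy and at 18.1, 19.1 and 18.5 FPKM at 10 Gy. The groups overlapped, with a difference of 0.03 (95% interval -0.07 to 0.14) and an adjusted p of 0.580 by limma. The ratio of E2F1 to RB1 in a library was 4.63, 3.78 and 4.06 at 0 Gy and 3.49, 3.16 and 3.34 at 10 Gy. These groups did not overlap, and the mean went from 4.16 ± 0.436 to 3.33 ± 0.168, a difference of -0.32 in log2 (exact permutation p = 0.1, adjusted 0.133).

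E2F1 and CDC25A are the members whose promoter windows held an E2F motif, and their sequences are shown for that reason. Shown beside them is CCNE1, a known E2F target whose window held none. Whether motif and fall go together was not tested. The windows are RefSeq's on GRCh38.p14, 250 bases before to 50 after a start, and 7 of the 10 genes had one. CCND1, CCNE2 and CDK2 had no window. The motifs searched, on both strands, were TTTCGCGC, TTTGGCGC, TTTCCCGC and TTTGCCGC. Each run below has 120 bases, reads 5′ to 3′ on the gene's strand and has any motif in capitals. Those of E2F1 and CDC25A end at -1 from the RefSeq start, whereas that of CCNE1 ends at -94, just before GENCODE's start, and leaves out the 93 bases next to the RefSeq start. E2F1 lies at chr20:33686386-33686505 (minus strand), CDC25A at chr3:48188418-48188537 (minus strand) and CCNE1 at chr19:29811778-29811897 (plus strand).
E2F1: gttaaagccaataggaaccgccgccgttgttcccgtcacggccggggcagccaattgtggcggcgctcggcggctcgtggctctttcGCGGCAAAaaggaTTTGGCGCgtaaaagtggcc
CDC25A: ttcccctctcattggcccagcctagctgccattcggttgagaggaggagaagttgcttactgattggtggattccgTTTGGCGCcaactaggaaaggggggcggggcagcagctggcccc
CCNE1: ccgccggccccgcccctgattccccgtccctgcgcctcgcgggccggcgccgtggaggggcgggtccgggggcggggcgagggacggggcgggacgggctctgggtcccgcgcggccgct
In E2F1 a TTTGCCGC on the opposite strand begins at -33 from the RefSeq start and a TTTGGCGC on the gene's strand at -20. CDC25A holds a TTTGGCGC at -44, and the windows of CCND3, CDK4, CDK6, RB1 and CCNE1 held none of the 4 motifs. The windows of RB1 and CDK4, all 3 of CCND3 and 1 of the 2 of CDK6 begin at RefSeq starts well inside the gene as GENCODE draws it, so that for RB1, CDK4 and CCND3 the bases before GENCODE's start were not searched. A motif stood in 1164 of 35116 windows (3.32%), or in at least 1 window of 1090 of 27305 genes (3.99%), and in 10 of the 18 genes with a window among the E2F targets of S phase described below.

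The deposited FPKM fix a common scale for all genes of a library, and other scalings shift every gene together. The depth behind the deposited FPKM was 0.973 to 0.991 per assigned read at 0 Gy and 1.028 to 1.039 at 10 Gy. Every irradiated library was thus scaled lower, and the part of this in the falls was not tested. The median difference of all genes tested moved from -0.04 as deposited to 0.07 when libraries were scaled to equal totals (TPM), a shift of 0.106, to 0.18 when they were scaled to the upper quartile, a shift of 0.216, and to 0.0008 by the median of ratios. The upper quartile was taken over all genes with reads in a library, before the filter on mean FPKM. The genes it covers can thus differ between libraries of unlike depth. The split of all calls moved with it, from 1443 higher and 2874 lower as deposited to 3127 and 1071 under TPM, 1945 and 2047 under the median of ratios, and 3922 and 122 under the upper quartile. Relative to the median of all genes, CDK4 was lower by the same amount to within a few hundredths, at -0.54 as deposited, -0.52 under TPM, -0.53 under the median of ratios and -0.50 under the upper quartile. CCNE2 was at -0.46 under each. E2F1 lay between -0.24 and -0.20, and CDC25A between -0.15 and -0.13. CCND1 lay between -0.08 and -0.04 and CCNE1 between -0.05 and -0.04, close to the median of all genes. CDK2 and RB1 lay above it, each from 0.07 to 0.10, and were called higher under TPM and the upper quartile alone. The call of RB1 under TPM was at the threshold, with an adjusted p of 0.04999 by limma. CCND3 stood within 0.02 of the median and CDK6 from 0.04 to 0.07 above it.

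**Figure D4:**
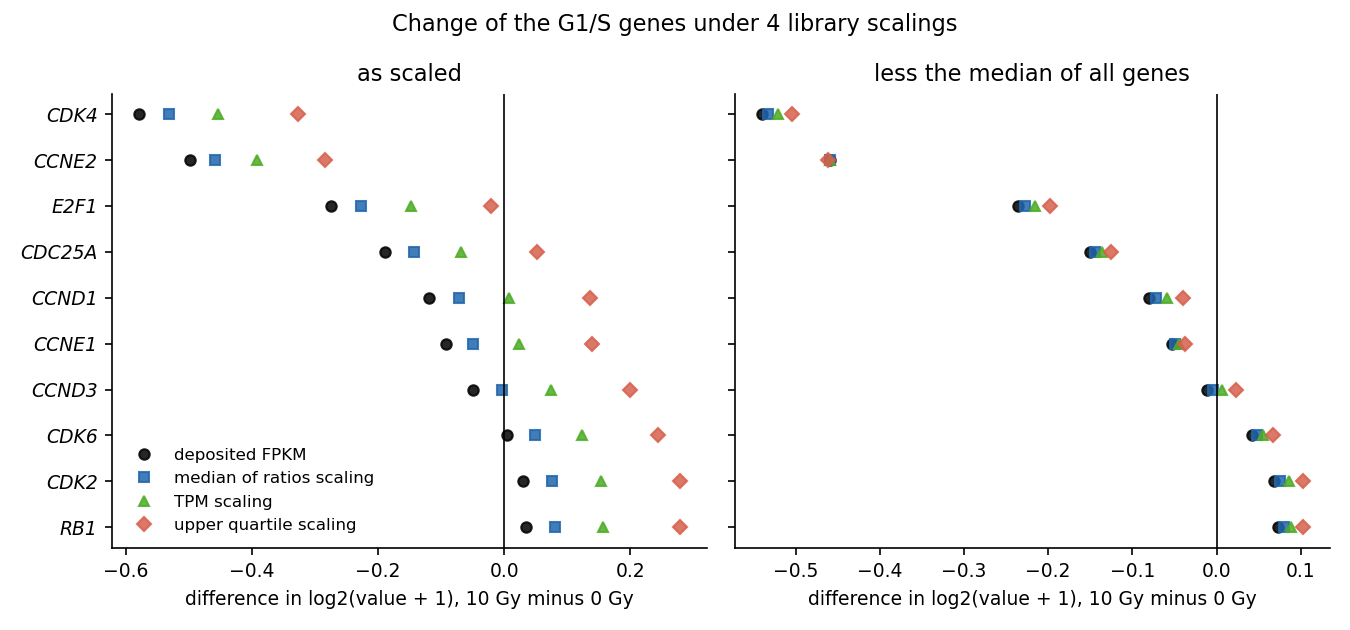
Difference in log2(value + 1) of each gene under 4 scalings of the libraries, as scaled (left) and less the median of all genes tested (right). On the left CCND1, CCND3, CCNE1 and CDC25A cross 0, and on the right CDK4 stays between -0.54 and -0.50 and CCNE2 at -0.46.

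The genes around these 10 were taken from 7 lists of general knowledge with 103 genes, written with earlier results of these data known. Their counts describe the lists and are no independent support for a pattern. Of these genes, 98 were tested, with 22 called higher and 36 lower. Under TPM scaling the calls were 35 higher and 23 lower, and under the upper quartile 34 and 2. Of all genes tested, 11.9% were called higher and 23.7% lower as deposited, the shares to set beside the counts of each list. Of the 7 CDK inhibitors, 5 were tested, with 3 called lower, none higher and a median of -0.24; TPM and upper quartile scaling each left 1 called. CDKN1A, which inhibits CDK2, fell from 30.7 to 24.7 FPKM (-0.30, adjusted p = 0.0102 by limma). CDKN2D, an inhibitor of CDK4 and CDK6, fell from 34.4 to 24.0 FPKM (-0.50, adjusted p = 0.00187), and CDKN1C from 2.43 to 1.90 FPKM (-0.24, adjusted p = 0.0367). CDKN1B (-0.10, adjusted p = 0.0541) and CDKN2C (-0.09, adjusted p = 0.256) were not called. CDKN2A and CDKN2B had 0 reads in every library, where 3 reads would have been 0.0232 to 0.0451 FPKM and 0.0247 to 0.0481 FPKM; the line is known to lack this locus. The floor covers counting error only.

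Of the 11 other pocket proteins, E2Fs and their DP partners, 4 were called lower and 2 higher, with a median of -0.11. TFDP1, the main DNA-binding partner of E2F1, fell from 75.8 to 62.9 FPKM (-0.26, adjusted p = 0.00193 by limma), whereas TFDP2 rose from 3.80 to 5.10 FPKM (0.35, adjusted p = 0.00214). The pocket protein RBL2 rose from 3.49 to 4.50 FPKM (0.29, adjusted p = 0.00463), and RBL1 was not called (-0.11, adjusted p = 0.0517). The repressor E2F8 fell from 11.8 to 9.05 FPKM (-0.35, adjusted p = 0.00710), as did its relative E2F7 (-0.16, adjusted p = 0.0296) and E2F4 (-0.16, adjusted p = 0.0143). E2F2 (-0.13, adjusted p = 0.168), E2F3 (-0.07, adjusted p = 0.168), E2F5 (-0.03, adjusted p = 0.697) and E2F6 (-0.10, adjusted p = 0.224) were not called. Under upper quartile scaling none of the list was called lower and 2 were called higher. E2F1 itself supplied 47.2 ± 2.05% of the summed level of E2F1 to E2F8 at 0 Gy and 45.3 ± 0.398% at 10 Gy, while that sum went from 159 to 137 FPKM.

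Of 21 E2F target genes of S phase, 18 were called lower and none higher, 7 of them by at least 1.3-fold, with a median of -0.27; TPM scaling left 14 lower and 1 higher, and upper quartile scaling 1 lower. RRM2, a subunit of ribonucleotide reductase, fell from 35.1 to 21.6 FPKM (-0.68, adjusted p = 0.000227 by limma), and the replication clamp PCNA (-0.48, adjusted p = 0.000743) and the helicase factor CDC45 (-0.45, adjusted p = 0.000593) also fell. TK1, SLBP and MYBL2, named after their values were seen, were the 3 not called. The G2 and mitosis list had 15 of 19 tested genes called higher and 2 lower, with a median of 0.25, and 17 were called higher under both TPM and upper quartile scaling. KIF20A, a mitotic kinesin (0.64, adjusted p = 0.000257), and the mitotic cyclin CCNB2 (0.55, adjusted p = 0.000576) rose most, and AURKB (-0.22, adjusted p = 0.00262) and CCNF (-0.16, adjusted p = 0.0170) fell. The difference between these lists was not tested.

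**Figure D5:**
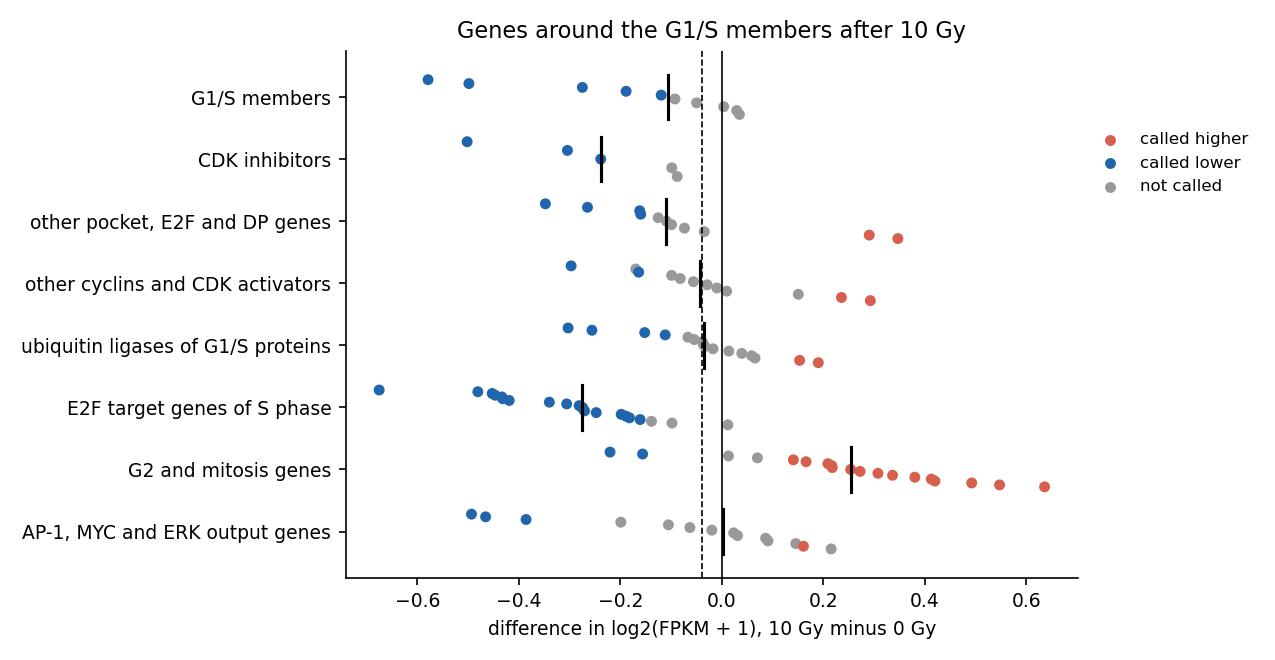
Difference in log2(FPKM + 1) between 10 Gy and 0 Gy for each tested gene of the 10 members and the 7 lists around them, coloured by call; short vertical bars are list medians and the dashed line is the median of all genes tested. The S phase targets have a median of -0.27 and the G2 and mitosis genes one of 0.25, and the 10 members have one of -0.11.

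Among 12 tested genes of other cyclins and CDK activators, 2 were called in each direction, with a median of -0.04; TPM scaling gave 3 higher and 1 lower, and upper quartile scaling 3 higher and none lower. CDC25C (0.29, adjusted p = 0.00195 by limma) and CDC25B (0.24, adjusted p = 0.00312), which act on mitotic CDK1, rose while their relative CDC25A fell. PKMYT1, a kinase that inhibits CDK1, fell (-0.30, adjusted p = 0.0107), as did CCNH, of the CDK-activating kinase (-0.16, adjusted p = 0.0373). Of the 16 ubiquitin ligase genes, 4 were called lower and 2 higher, with a median of -0.03. Beside both of these lists, 23.7% of all genes tested were called lower and 11.9% higher, with a median of -0.04. These counts therefore set neither list apart from all genes. SKP2, which marks CDKN1B for destruction, fell (-0.30, adjusted p = 0.00282), with RBX1 (-0.26, adjusted p = 0.0122) and CUL4B (-0.15, adjusted p = 0.0138). AMBRA1, the receptor that directs D-type cyclins to destruction, rose (0.19, adjusted p = 0.0125), as did FBXW11 (0.15, adjusted p = 0.00925). Under upper quartile scaling 5 genes of this list were called higher and none lower, and under TPM 4 higher and 1 lower.

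Of 14 AP-1, MYC and ERK output genes, among them regulators of CCND1, 3 were called lower and 1 higher as deposited, 3 lower and 8 higher under TPM, 3 lower and 5 higher under the median of ratios, and 7 higher and none lower under the upper quartile. As deposited, 23.7% of all genes tested were called lower and 11.9% higher. MYC (-0.49, adjusted p = 0.000439 by limma), FOSL1 (-0.47, adjusted p = 0.000593) and JUN (-0.39, adjusted p = 0.000965) fell, and the ERK phosphatase DUSP6 rose (0.16, adjusted p = 0.0413). By pattern over the 6 libraries, the genes nearest to CCND1 among 4583 protein-coding candidates were PRMT5, TOMM70 and HNRNPK, at root-mean-square distances of 0.0118, 0.0126 and 0.0129 in log2(FPKM + 1). The nearest to E2F1 were RPS2, RHOG and AKIP1, at 0.0168, 0.0170 and 0.0183. Values were taken less each gene's own 0 Gy mean, so genes with a like dose difference lie near. Shared regulation was not tested.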

How the data were processed

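RNA was sequenced from 6 MDA-MB-231 libraries, 3 per dose. The authors deposited 1 table of FPKM for 58735 genes; the submitters' processing notes name HISAT2 and GRCh38, while the counter and the use of strand are not given in the sources used here. Gene lengths and coordinates equal those of GENCODE 29 for 99.98% of genes. FPKM times length and implied depth gave whole reads for 100% of values (tolerance 0.01), which set the depth. That depth per recovered read was 0.973, 0.983 and 0.991 in the 0 Gy libraries and 1.036, 1.039 and 1.028 in the 10 Gy libraries. The same share of assigned reads therefore gives a lower FPKM in every irradiated library. Genes whose mean over the libraries reached 1 FPKM were fitted with limma 3.58.1 (R 4.3.3, eBayes with trend) on log2(FPKM + 1). That scale understates changes of low genes. Benjamini-Hochberg adjustment was over all 12128 genes. The fit was tested on simulated data, which held no shift of scale between the doses. That test therefore does not bear on how the libraries were scaled. Ratios within libraries were compared by exact two-sided permutation tests (scipy 1.17.1). Promoter sequences are from RefSeq. The labels give no batch. The members and lists were chosen with earlier results of these data known. Named were all members, all CDK inhibitors and all pocket, E2F and DP genes, of each other list up to the 2 largest rises and 3 largest falls called, and the 3 genes most alike to CCND1 and to E2F1 with a mean of at least 10 FPKM. Alternatives were other pseudocounts, filters, scalings and eBayes settings, protein-coding genes alone, a replicate block and leaving out each library. Another was limma-voom on the recovered reads, with the implied depths as library sizes, so it kept the scale of the deposited FPKM.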

Additional observations from a re-analysis of the deposited data

How the results depend on the processing

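Over the 18 alternatives of each difference, CDK4 was called lower in 18, CCNE2 and E2F1 in 17 and CDC25A in 16; CCND1 was called in 10, CDK2 and RB1 in 2, CCNE1 in 1 and CCND3 and CDK6 in 0. Upper quartile scaling left 3 of the 10 genes called (2 higher and 1 lower) in place of 5, 0 at 1.3-fold in place of 2, and 36 of the pathway genes (34 higher and 2 lower) in place of 58. Over all genes tested it called 3922 higher and 122 lower. CCNE2 then had an adjusted p of 0.0562 by limma and E2F1 one of 0.881. The scaling moves all genes together, by its construction. Signs turned for CCND1 under TPM (0.0082) and the upper quartile (0.1363), for CCND3 (0.0746 and 0.1995), for CCNE1 (0.0235 and 0.1396) and, under the upper quartile alone, for CDC25A (0.0515). Leaving out 1 library at a time put CDK2 between -0.0005 and 0.0678 and CDK6 between -0.0698 and 0.0527, and all calls between 2660 (without irradiated replicate 2) and 3993 in place of 4317; without irradiated replicate 1 there were 2705, with fewer samples fitted. The 4 ratios kept their direction in all 8 alternatives of each.

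Same-numbered libraries of the 2 doses did not deviate together (correlations of -0.0405, -0.0349 and -0.1011), so the numbers were not taken as pairs. With a replicate block 4 of the 10 genes were called in place of 5, CCND1 being lost, and 3503 genes in all. Depth limits CCNE2 and CCNE1 most, on 288 to 671 reads a library.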
